A study of Mus musculus with 2 samples.

Results

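Among lung mesenchymal cells taken from mice given bleomycin, 641 cells held much osteopontin RNA (Spp1) and no detected RNA of Cthrc1, a secreted protein that marks the collagen-rich fibroblasts of scarred lung. They were chosen from the counts of single cells: at least 20 UMIs (unique transcript molecules) of Spp1 and 0 UMIs of Cthrc1, Mki67, Top2a, Myh11, Pi16, Ptprc and Epcam, the last 6 being genes of dividing cells, smooth muscle, adventitial fibroblasts, leukocytes and epithelium. These Spp1-high cells were 6.41% [5.94–6.91] of the 10001 bleomycin cells kept, out of 18351 kept cells in both libraries. Brackets give exact 95% intervals that cover counting error only. The Spp1 and Cthrc1 counts selected the cells and are given as description.

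Osteopontin is a secreted, acidic adhesion protein that binds integrins and CD44, and is made in bone, by macrophages and by injured tissue. After lung injury, fibroblasts of the alveolar wall are known to lose their lipid- and retinoid-handling genes, to pass through an inflammatory state that makes acute phase proteins and chemokines, and in part to become matrix-producing cells with Cthrc1, periostin and contractile proteins. Cells with much Spp1 and no Cthrc1 bear on which of these programs go together in 1 cell.

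The mice carried Lepr-CreERT2;Rosa26-tdtomato, in which a tamoxifen-dependent Cre made from the leptin receptor locus switches on tdTomato for good, and were 8 to 10 weeks old. One group received saline and the other bleomycin, which damages the lining of the alveoli and is followed by scarring, with 1 library each. Live tdTomato-positive cells without CD45, EpCAM or CD31 were sorted from digested lung, so the shares below are shares of sorted cells. The labels do not state how many mice were pooled, when tamoxifen was given, or the dose and timing of the injury. Cells of 1 library are not replicates, so no p-value is given and every difference is one between groups of cells in a single library.

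The saline library held 60937359 UMIs in 8396 barcodes and the bleomycin library 134732429 UMIs in 10138 barcodes. Cells with at least 500 genes and at most 10% mitochondrial UMIs were kept, 8350 and 10001 in number. The libraries shared 25 barcodes, of which 4 belonged to Spp1-high cells. The same selection found 0 cells in saline, which allows a share of up to 0.0359%; 3 saline cells reached 20 UMIs of Spp1, the highest holding 61. In 59 bleomycin cells with at least 3 UMIs of Epcam, present despite the sorting gate, the median Spp1 count was 0 and 1 cell (1.69%) reached 20.

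Of 1853 kept bleomycin cells with at least 20 UMIs of Spp1, 829 had no UMI of Cthrc1. Of those, 112 had a UMI of Top2a, 101 of Mki67, 28 of Myh11, 23 of Pi16, 10 of Ptprc and 5 of Epcam, with overlaps. The Spp1 count ran from 20 to 4830 with quartiles of 66, 183 and 532, and Spp1 took 3.03% of all their UMIs. Near the lower limit, 30 members held 20 to 24 UMIs of Spp1 and 35 cells with no Cthrc1 held 15 to 19, so no gap separated the cells on either side. Beside the 641 cells without Cthrc1, 149 had 1 UMI of it, 99 had 2 and 480 had 3 or more.

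Under the same exclusions, 968 bleomycin cells with at least 3 UMIs of Cthrc1 (Cthrc1-high cells) and 4431 with fewer than 20 UMIs of Spp1 and no Cthrc1 (Spp1-low cells) were set beside them. Of the Cthrc1-high cells, 480 also reached 20 UMIs of Spp1. The median depth was 14762 UMIs and 3415 genes in Spp1-high cells, 15993 and 3654 in Cthrc1-high cells, and 10628 and 2936 in Spp1-low cells. A class asked to hold many UMIs of a gene favours deep cells, and a count of 0 for Cthrc1 does not show that the gene was off. Results were repeated in cells of 8000 to 20000 UMIs, in cells of at least 10000 UMIs and without the 5% deepest cells, and shares of cells were taken at a fixed depth; the part of depth was not tested otherwise.

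**Figure D1:**
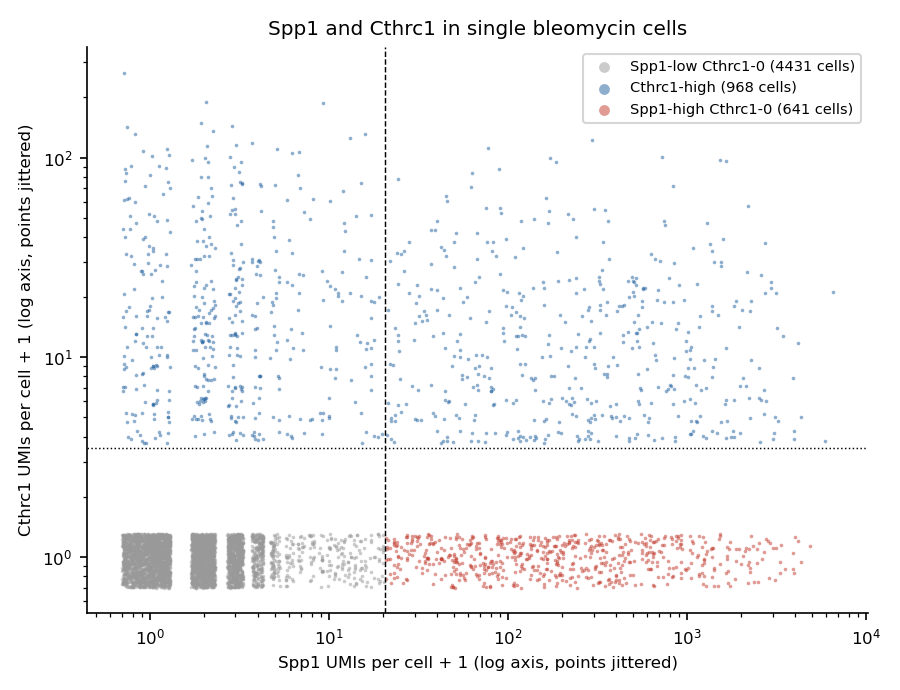
Each point is 1 bleomycin cell, with its UMIs of Spp1 on the horizontal and of Cthrc1 on the vertical axis, both plus 1 on log axes with jitter; cells with 1 or 2 UMIs of Cthrc1 are not drawn. The 641 Spp1-high cells form the right part of the lowest row, continuous with the Spp1-low cells at 20 UMIs, while the 968 Cthrc1-high cells spread over the whole range of Spp1.

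The start regions of genes these results turn on are shown to let their letters be compared: Spp1 and Kif26b as markers, Saa3 and Cxcl13 as genes higher in Spp1-high than in Cthrc1-high cells, and Postn as a gene lower. Of 7 genes looked for, 6 matched the RefSeq table (build GRCm38.p6). Hp did not, and the bases before the RefSeq start of Chl1 are not shown because the GENCODE annotation holds them as transcribed. Each run is 5′ to 3′ on the gene's strand and ends at the base before the RefSeq start, or, for Saa3, before the earlier GENCODE start. Capitals mark any of 6 motifs, searched on both strands.
Spp1, chr5:104434911-104435110, plus strand: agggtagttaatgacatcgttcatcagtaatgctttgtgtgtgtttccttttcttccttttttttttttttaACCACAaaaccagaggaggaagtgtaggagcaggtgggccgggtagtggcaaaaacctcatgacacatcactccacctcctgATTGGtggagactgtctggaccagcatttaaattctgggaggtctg
Kif26b, chr1:178528925-178529124, plus strand: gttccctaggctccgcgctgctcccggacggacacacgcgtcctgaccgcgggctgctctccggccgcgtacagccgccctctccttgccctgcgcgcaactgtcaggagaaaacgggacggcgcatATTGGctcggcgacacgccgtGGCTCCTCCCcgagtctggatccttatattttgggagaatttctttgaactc
Saa3, chr7:46715701-46715876, minus strand: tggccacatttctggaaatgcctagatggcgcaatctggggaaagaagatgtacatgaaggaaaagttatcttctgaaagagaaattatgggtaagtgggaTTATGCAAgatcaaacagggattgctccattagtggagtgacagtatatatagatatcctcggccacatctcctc
Cxcl13, chr5:95956739-95956938, plus strand: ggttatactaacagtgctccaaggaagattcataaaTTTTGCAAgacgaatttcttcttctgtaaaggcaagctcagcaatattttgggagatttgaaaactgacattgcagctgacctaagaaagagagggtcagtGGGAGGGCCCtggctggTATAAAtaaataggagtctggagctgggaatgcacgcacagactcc
Postn, chr3:54360907-54361106, plus strand: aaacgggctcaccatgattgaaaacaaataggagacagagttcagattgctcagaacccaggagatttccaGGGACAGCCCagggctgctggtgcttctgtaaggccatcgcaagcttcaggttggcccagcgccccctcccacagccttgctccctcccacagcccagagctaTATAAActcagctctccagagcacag

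The motif letters were TATAAA for the TATA box, TGANTCA for AP-1, TTGCNNAA for C/EBP, GGGA, any 4 bases and CC for NF-kB, TGTGGT for Runx and CCAAT. In the 200 bases before the start, they were found in 9.96%, 5.48%, 7.47%, 14.9%, 11.2% and 29.3% of 32851 start regions. Spp1 held the Runx letters 128 to 123 bases before its start and CCAAT 46 to 42 bases before it. Saa3 and Cxcl13 each held the C/EBP letters, at 99 to 92 and at 164 to 157 bases before the RefSeq start, and Cxcl13 and Postn each held a TATA box and the NF-kB letters. The search found no motif shared by all 5 regions. A match describes letters and is neither a bound site nor a cause.

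The cells were fibroblasts by their general genes and held little RNA of leukocytes, epithelium and endothelium. Sorting had removed cells with CD45, EpCAM or CD31, and the rule asked for 0 UMIs of Ptprc and Epcam. Low values for these cell types were thus favoured beforehand and are description. After every cell was thinned to 5000 UMIs, 98.7% of Spp1-high cells had a UMI of the collagen chain Col1a1 and 70.0% of the fibroblast receptor Pdgfra, against 11 of 55 and 5.45% of Epcam-positive cells. Summed over 11 epithelial markers, RNA of Spp1-high cells made up 65.3 CPM (a gene's part of all UMIs of a class, scaled to the usual fixed total), against 838 CPM in Spp1-low cells. The 15 leukocyte markers summed to 40.0 and 366 CPM, and the 11 mesothelial markers to 58.9 and 297 CPM. In Cthrc1-high cells the epithelial, leukocyte and mesothelial sums were 57.3, 26.3 and 50.2 CPM. Low sums were therefore not particular to Spp1-high cells. The 11 endothelial markers summed to 82.6 CPM in Spp1-high, 40.1 in Cthrc1-high and 75.7 in Spp1-low cells, carried by Ramp2 (56.2 CPM in Spp1-high cells) and Calcrl (21.0), while Pecam1 was at 0.298 and Emcn, Tie1 and Lyve1 were at 0 there. The Spp1-low class thus held more RNA of other cell types, and its part in the comparisons with that class was tested only by leaving such cells out.

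Of the genes given as markers of these cells beside Spp1, none was at least 2-fold higher than in both other classes. Spp1 (chromosome 5, 104435118 to 104441050) was at 30293 CPM in Spp1-high, 16568 in Cthrc1-high, 113 in Spp1-low and 0.643 in saline Spp1-low cells. The adhesion molecule gene Chl1 (chromosome 6, 103510586 to 103750211) was at 196 CPM [187–205] in Spp1-high, 39.9 [37.0–43.0] in Cthrc1-high, 149 [146–152] in Spp1-low and 1.61 in saline cells. It was thus 4.91-fold above Cthrc1-high but only 1.31-fold above Spp1-low cells. Hp (chromosome 8, 109575128 to 109579172), which encodes the haemoglobin-binding acute phase protein haptoglobin, was at 746, 108, 685 and 59.8 CPM in the same order, 6.92-fold above Cthrc1-high and 1.09-fold above Spp1-low cells. Kif26b (chromosome 1, 178529125 to 178939200), a kinesin family gene linked to Wnt signalling, was at 45.7, 99.5, 26.1 and 0.386 CPM and so lower than in Cthrc1-high cells. So the name held for Spp1 and the undetected Cthrc1 by construction, while Chl1 and Hp were shared with Spp1-low cells and Kif26b was highest in Cthrc1-high cells.

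Against Cthrc1-high cells, Spp1-high cells held more RNA of acute phase, antimicrobial and complement genes and of several chemokines. Genes were called higher or lower by size: a ratio of summed CPM of 2 or more, whose interval left out 1, and 10 CPM or more in the class with the larger value. Of 7527 genes with 10 CPM in either class, 183 (2.43%) were higher and 209 (2.78%) lower in Spp1-high cells, the genes of the selection left out. Since Cthrc1 separated the classes, genes that go with it had to differ, and these counts are description. In cells of 8000 to 20000 UMIs they were 207 and 206, and against cells with at least 1 UMI of Cthrc1 64 and 141. Of the called genes, 65 of the 183 and 103 of the 209 were below 10 CPM in the class with less and so entered only through the class where they were high; list counts below hold such genes too. The median log2 ratio over all genes tested was -0.04.

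Saa3, a serum amyloid A protein of acute inflammation, was at 1961 CPM [1933–1988] in Spp1-high and 116 [111–122] in Cthrc1-high cells, a ratio of 16.9 [16.1–17.6], which was 7.33 against cells with at least 1 UMI of Cthrc1 and 30.2 against those with at least 6. Lcn2, the iron-withholding antimicrobial lipocalin, was at 799 and 59.5 CPM, a ratio of 13.4 [12.6–14.3]. The chitinase-like secreted protein gene Chil1 was at 361 and 29.1 CPM. The ratio of Lcn2 ran from 6.34 to 18.3 and that of Chil1 from 5.80 to 20.6 over all alternatives tried. These genes were found in a part of the cells: Saa3 was detected in 253 of 641 Spp1-high cells, and the 5% of cells with most of it held 60.4% of its UMIs. For Lcn2 and Hp that share was 65.5% and 46.3%. Saa1 had the highest ratio of all, 91.0 [38.5–283], but 151 of its 264 UMIs came from 1 cell, and the ratio was 6.74 against cells with at least 1 UMI of Cthrc1.

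Of 16 measured acute phase and inflammatory genes, 9 were higher in Spp1-high than in Cthrc1-high cells and 0 lower (median log2 ratio 1.31). Beside those named, they included the protease inhibitor Serpina3n (548 against 162 CPM), the mitochondrial superoxide dismutase Sod2 (515 against 164) and Cebpd, a transcription factor of the acute phase response (1152 against 516). Nfkbia, Nfkbiz, Socs3 and Lif were less than 2-fold apart. Of 9 measured complement genes 6 were higher and 0 lower, among them C3 (588 against 212 CPM) and C7 (35.0 against 7.38). Their median log2 ratio was 1.17.

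Of 18 measured chemokines and cytokines, 5 were higher and 1 lower. Cxcl13, which draws B cells, was at 147 CPM against 6.80 and was carried by 44 cells, 1 of which held 345 of the 1477 UMIs. Cxcl12, which retains haematopoietic cells, was at 547 against 188 CPM and Cxcl14 at 2383 against 824. Ccl11 and Cxcl5, which attract eosinophils and neutrophils, completed the higher genes. The exception was the interferon-induced Cxcl9, at 9.34 against 47.6 CPM. Other genes among the 12 highest ratios were Wfdc12, Chodl, C6, Csf3, Wnt4 and the carboxylesterase gene Ces1d, the last at 130 against 21.7 CPM. Wfdc12 and Csf3 were found in 65 and 64 of 641 Spp1-high cells. The 5% of cells with most of each held 90.8% and 89.0% of its UMIs, and the ratio of Wfdc12 ran from 7.81 to 97.2 over all alternatives.

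Genes of scar matrix and contraction were lower in Spp1-high than in Cthrc1-high cells. Of 16 measured fibrotic fibroblast genes 12 were lower and 0 higher (median log2 ratio -2.31), 6 of the 12 being below 10 CPM in Spp1-high cells and measured only through Cthrc1-high cells. Postn, which encodes the matrix protein periostin, was at 62.7 CPM [57.9–67.8] against 497 [487–508], a ratio of 0.126 [0.116–0.137]. Thbs4, a thrombospondin of tendon and injured tissue, was at 21.3 against 370 CPM, and Col8a1 at 3.87 against 204. Col11a1, a fibrillar collagen chain of cartilage and scar, had 0 UMIs in Spp1-high cells and 44.9 CPM in Cthrc1-high cells, at least 151-fold lower by the floor of 3 UMIs over the class. Lrrc15, a membrane protein of scar fibroblasts, had 1 UMI there, a ratio of 0.00641 [0.000162–0.0360], as had Sfrp4, at 0.00756 [0.000191–0.0425], and the tenascin family gene Tnn. Also among the 12 lowest ratios were the secreted protein gene C1qtnf3 (0.795 against 59.4 CPM), the retinol receptor Stra6 (0.596 against 10.1), Aldh1a3 (0.695 against 25.7) and Cnn1 (0.993 against 15.1). The remaining 4, Runx1, Tnc, Ltbp2 and P4ha3, were less than 2-fold apart.

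A part of the broader matrix list was lower. Of 26 matrix genes 10 were lower and 0 higher: Col1a1 was at 2575 against 7738 CPM, a ratio of 0.333 [0.328–0.337], and the proteoglycan gene Lum at 15.2 against 332. Col3a1 (3564 against 4721 CPM), fibronectin Fn1 (5150 against 6218) and elastin Eln (4374 against 3527) were within 2-fold. Of 23 collagen-processing genes 3 were lower, Plod2, Loxl2 and Loxl3, and 0 higher. Of 19 genes of protein folding and secretion 0 were higher and 0 lower.

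Among 22 contractile genes 7 were lower and 0 higher. Smooth muscle actin Acta2 was at 367 CPM [356–379] in Spp1-high and 1321 [1304–1338] in Cthrc1-high cells, Tagln at 932 and 2765, and Csrp2 at 107 and 654. In the TGF-beta list 5 of 21 were lower and 0 higher: the ligands Tgfb2 and Tgfb3, the activin subunit gene Inhba, Tgfbi and Ccn2, the last at 295 against 931 CPM. Smad7 and the receptors Tgfbr1 and Tgfbr2 were less than 2-fold apart. The cell cycle inhibitor genes Cdkn2a (1.69 against 41.6 CPM) and Cdkn2b (5.46 against 30.7) were lower, while 0 of 14 genes of the p53 and senescence list were higher.

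Against Spp1-low cells, Spp1-high cells held more RNA of Tnfrsf11b, Grem1, Fst, Inhba, Timp1, Serpine2 and Tnc, among others, while the lists of proteases and their inhibitors (3 of 24 higher, 0 lower) and of matrix genes (2 of 26 higher, 3 lower) had median log2 ratios of -0.08 and 0.01. Of 7570 genes, 107 (1.41%) were higher and 262 (3.46%) lower, and the median log2 ratio over all of them was -0.04. Of these, 50 and 120 were below 10 CPM in the class with less. Tnfrsf11b, which encodes the decoy receptor osteoprotegerin, was at 32.1 CPM [28.7–35.8] against 2.16 [1.77–2.61], a ratio of 14.9 [11.9–18.6]. Grem1, a BMP antagonist, was at 31.2 against 4.58 CPM, and the activin antagonist Fst at 536 against 126, a ratio of 4.27 [4.11–4.43]. Inhba, a subunit of activin itself, was at 200 against 54.5 CPM. Grem1 rested on few cells, 61 of 641, whereas Fst was detected in 494.

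Of 14 genes chosen in earlier work on these same data as higher in all classes of bleomycin cells, 7 were higher than in Spp1-low cells and 0 lower (median log2 ratio 1.08). The metalloprotease inhibitor Timp1 was at 4134 CPM against 1854, the matrix protein tenascin Tnc at 612 against 268, and the prostaglandin transporter gene Slco2a1 at 101 against 26.0. Ereg, a ligand of the EGF receptor, was at 395 against 172 CPM. The serine protease inhibitor Serpine2 was at 2583 against 827 CPM. Against Cthrc1-high cells, the ratios of Timp1, Serpine2, Fst and Slco2a1 were 0.954, 0.915, 0.872 and 0.959, but 3 of the 14 genes were higher there (Chl1, Slpi and Mmp8, the last at a ratio of 2.20) and 4 lower (Grem1 at 0.209, Cemip at 0.313, Col7a1 at 0.406 and Kif26b at 0.459).

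In the fibrotic list 6 of 10 measured genes were higher than in Spp1-low cells and 1, Aspn, was lower (median log2 ratio 1.13). Fbn2 and Grem1 were measured only through Spp1-high cells, and these 10 genes are fewer than the 16 measured against Cthrc1-high cells. The 6 were Postn (a ratio of 2.61 [2.37–2.88]), Tnc, Fbn2, P4ha3, Grem1 and Inhba. Among the largest ratios over Spp1-low cells were further the Wnt ligand gene Wnt10a (17.6 against 2.24 CPM), the galectin gene Lgals7 (67.8 against 10.1), the argininosuccinate synthase gene Ass1 (88.2 against 18.2), Megf10, Cspg4, Fbxo32, Ptprn and Mmp10. Of these, Cspg4 was at least 2-fold higher again in Cthrc1-high cells, whereas Wnt10a, Lgals7 and Ass1 stood at 15.3, 61.1 and 91.3 CPM there. Col1a1 and Acta2 were not apart from Spp1-low cells, with ratios of 1.17 and 0.910.

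Genes of the alveolar fibroblast, of complement and of adventitial fibroblasts were lower than in Spp1-low cells. Of 16 measured alveolar fibroblast genes 11 were lower and 0 higher (median log2 ratio -1.15). The methyltransferase gene Inmt was at 128 CPM [121–135] in Spp1-high and 795 [788–803] in Spp1-low cells, and at 3398 in saline cells. The transcription factor gene Tcf21 was at 79.5 against 229 CPM and the microfibril protein gene Mfap4 at 836 against 2433. Lepr, whose activity had marked the cells, was at 2.98 CPM against 12.6, and at 54.5 in saline Spp1-low cells.

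Of 10 complement genes 5 were lower and 0 higher, and of 13 adventitial genes 7 were lower and 0 higher. C7 was at 35.0 CPM against 196. Among 16 acute phase genes 1 was higher, Saa1, and 2 were lower, Il6 (484 against 1040 CPM) and Serpina3g. Saa1 changed side once cells with UMIs of other cell types were left out, to a ratio of 0.375. The 12 lowest ratios were those of surfactant, immunoglobulin, airway, keratin and lymphatic genes, such as Sftpc (11.7 against 282 CPM) and Igkc (7.55 against 254); without cells holding at least 3 UMIs of epithelial, endothelial, leukocyte or mesothelial genes, the ratios of Sftpa1 and Sftpb were 1.21 and 1.91, on the other side of 1. The counts without those cells were 160 higher and 298 lower, and 104 of the 107 higher and 210 of the 262 lower genes were among them.

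Spp1-high cells lay between the other classes at most genes that set these apart. The selection can favour this, since the cells shared 0 UMIs of Cthrc1 with Spp1-low cells. They also shared at least 20 UMIs of Spp1 with 480 of the 968 Cthrc1-high cells. Genes that go with Spp1 or Cthrc1 can lie between for that reason. The values below are description and do not test for an intermediate state. Of 892 genes at least 2-fold apart between Cthrc1-high and Spp1-low cells, 763 (85.5%) had a level in Spp1-high cells strictly between both. Among 338 genes (4.36% of 7752) higher in Cthrc1-high cells it was 272 and among 554 (7.15%) lower genes 491. On a log2 scale running from 0 at the Spp1-low level to 1 at the Cthrc1-high level, the median position was 0.498, with quartiles of 0.282 and 0.674. It was 0.429 for genes higher in Cthrc1-high cells and 0.536 for genes lower there. These are sums over the cells of each class in 1 library, and where single cells lay was not tested. Against cells with at least 1 UMI of Cthrc1 instead of 3, the share between was 77.3%.

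The exceptions were of both kinds, 53 genes at or past the Cthrc1-high level and 76 at or past the Spp1-low level. Saa3, Lcn2, Chl1 and Hp were past the Spp1-low level, with ratios to it of 1.30, 1.48, 1.31 and 1.09, though lower in Cthrc1-high cells. For Hp that ratio ran from 0.972 to 1.20 over all alternatives tried, on both sides of 1. Lum and Aldh1a3 were the reverse: higher in Cthrc1-high cells, yet lower in Spp1-high than in Spp1-low cells, at ratios of 0.291 and 0.209. Aldh1a3 was at 0.695 CPM in Spp1-high and 3.33 CPM in Spp1-low cells. Both levels were below the minimum of 10 CPM, so the size rule did not measure that pair. Tnfrsf11b, Grem1, Postn, Thbs4 and Inmt lay between.

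**Figure D2:**
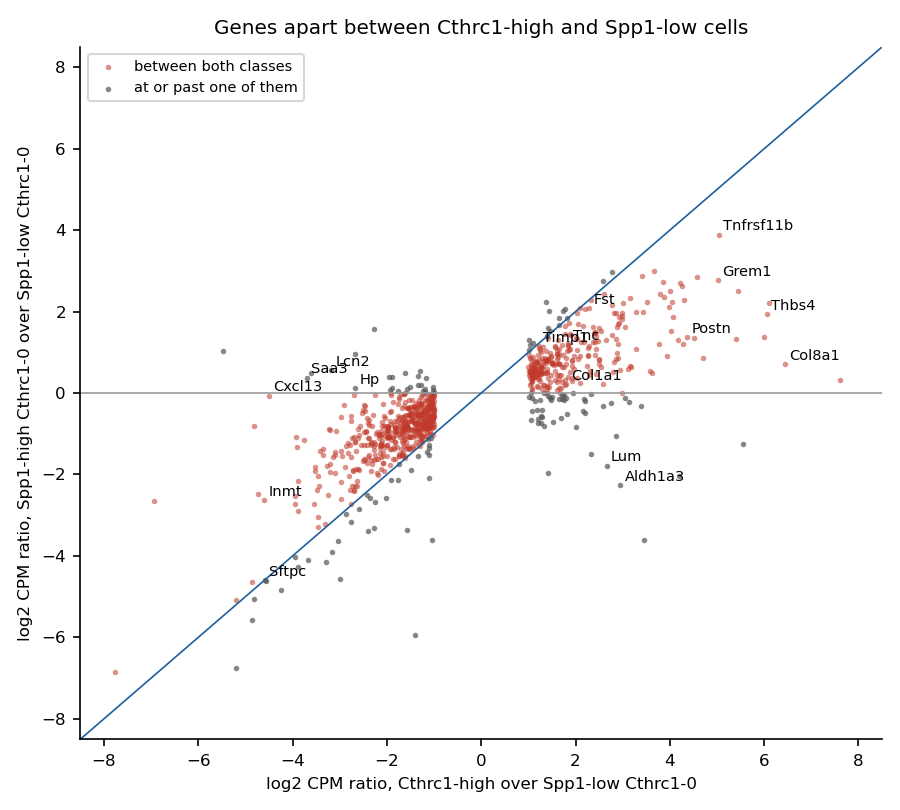
Each point is 1 of 891 genes at least 2-fold apart between Cthrc1-high and Spp1-low cells (1 gene with no UMI in Spp1-high cells is not drawn), with the log2 CPM ratio of Cthrc1-high over Spp1-low cells on the horizontal and of Spp1-high over Spp1-low cells on the vertical axis. The grey line marks the Spp1-low level and the blue line the Cthrc1-high level; the 763 genes in red lie between them, and Saa3, Lcn2, Lum and Aldh1a3 lie outside.

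Few genes were at least 2-fold above or below both other classes. Of 7290 genes with 10 CPM in both pairs of classes, 9 (0.123%) were higher than in both and 16 (0.219%) lower. Of the 9, 7 held that fold also in cells of 8000 to 20000 UMIs and in the mean of single-cell CPM. Ace, the angiotensin-converting enzyme, was at 227 CPM [218–236] in Spp1-high, 89.6 [85.2–94.2] in Cthrc1-high, 75.4 [73.0–77.8] in Spp1-low and 6.46 in saline cells. It was detected in 508 of 641 Spp1-high cells, with a median of 167 CPM and quartiles of 58.4 and 332, and the cell with most of it held 1.36% of its UMIs.

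The other 6 were lower in level and carried by fewer cells. Lipg, the endothelial lipase, was at 48.3, 19.8 and 11.7 CPM in Spp1-high, Cthrc1-high and Spp1-low cells, and the pseudokinase gene Trib2 at 39.1, 18.7 and 17.1. Chodl, a membrane lectin gene, was at 42.5, 2.94 and 14.2 CPM. Gpnmb, a transmembrane glycoprotein of pigment cells and macrophages, was at 29.0, 9.57 and 13.3 CPM. The stromelysin gene Mmp10 (19.5, 9.28 and 3.90 CPM) and the interleukin subunit gene Il12a (18.6, 4.09 and 4.10) were detected in 52 and 77 cells. Over all alternatives tried, the lowest ratios over Cthrc1-high cells were 1.99 for Ace, 1.67 for Lipg, 1.70 for Trib2 and 1.73 for Mmp10. These were below the fold asked for. For Chodl, Gpnmb and Il12a the lowest were 6.15, 2.05 and 2.77.

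Of the 16 genes lower than in both, 11 held under all 3 measures. Aspn, the proteoglycan asporin of peribronchial and other fibroblasts, was at 10.3 CPM against 55.5 in Cthrc1-high and 42.5 in Spp1-low cells. The caveolar gene Cav1 was at 17.6, 63.2 and 56.9 CPM, the water channel Aqp1 at 10.1, 36.8 and 36.8, and the noncoding RNA Meg3 at 1.89, 10.1 and 10.0. Lum, Itgbl1, Fbln5, Rrad, Gata6 and Fibin were also in the group. Against the Cthrc1-high cells with at least 20 UMIs of Spp1, a comparison added after seeing the data, Aspn, Fbln5, Itgbl1 and Fibin were less than 2-fold lower or not lower, at ratios of 0.574, 0.740, 0.555 and 1.06. Aqp1 was at 0.667 of the Spp1-low level once cells of other types were left out.

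Along steps of Spp1 and Cthrc1 the gene groups moved at different places. Saa3, Lcn2 and Cxcl13 were lower in cells with at least 20 UMIs of Spp1 that held Cthrc1 than in those without it, though among the latter they were also lower in the cells with most Spp1, as the bins below show. Saa3 was at 1168 CPM in cells with 0 UMIs of Spp1, 1643 with 1 to 4, 2560 with 5 to 19 and 1961 in Spp1-high cells, and then at 739, 169 and 125 in Spp1-high cells with 1, 2 and at least 3 UMIs of Cthrc1. Lcn2 took 455, 581, 767, 799, 477, 91.0 and 67.9 CPM over the same steps. Cxcl13 was at 147 CPM in Spp1-high cells without Cthrc1 and at 2.45, 1.77 and 2.03 with it. Among cells with at least 20 UMIs of Spp1, Saa3 and Lcn2 were thus lower at each step of Cthrc1, and Cxcl13 was low from the first UMI of it on.

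Fst, Tnfrsf11b and Timp1 differed with Spp1 first. Fst was at 110, 129, 200.5 and 536 CPM over the 4 steps of Spp1 without Cthrc1 and at 692, 755 and 740 over the 3 steps of Cthrc1. Tnfrsf11b was at 2.39, 1.61, 5.77 and 32.1 CPM, then 73.6, 82.2 and 106. In Cthrc1-high cells with fewer than 20 UMIs of Spp1 it was at 24.6 CPM, below the Spp1-high level. Timp1 likewise ran from 1809 CPM to 4134 and 5456, and was at 2859 in Cthrc1-high cells with little Spp1. Within Cthrc1-high cells, then, both were higher where Spp1 reached 20 UMIs.

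The matrix genes Col1a1 and Postn and the contractile gene Acta2 differed with Cthrc1, which defined those steps, and Postn also with Spp1. Col1a1 was at 2151, 2224, 2480 and 2575 CPM over the steps of Spp1 and at 3828, 4394 and 6710 over those of Cthrc1, with 9086 in Cthrc1-high cells with little Spp1. Acta2 was at 365 to 429 CPM in the 4 classes without Cthrc1 and at 411, 688 and 1293 in those with it. Postn was at 19.9, 26.2, 31.9 and 62.7, then 129, 179 and 330 CPM. The alveolar gene Inmt ran the other way from the first step on, at 924, 752, 321 and 128 CPM and then 84.3, 55.6 and 26.4.

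**Figure D3:**
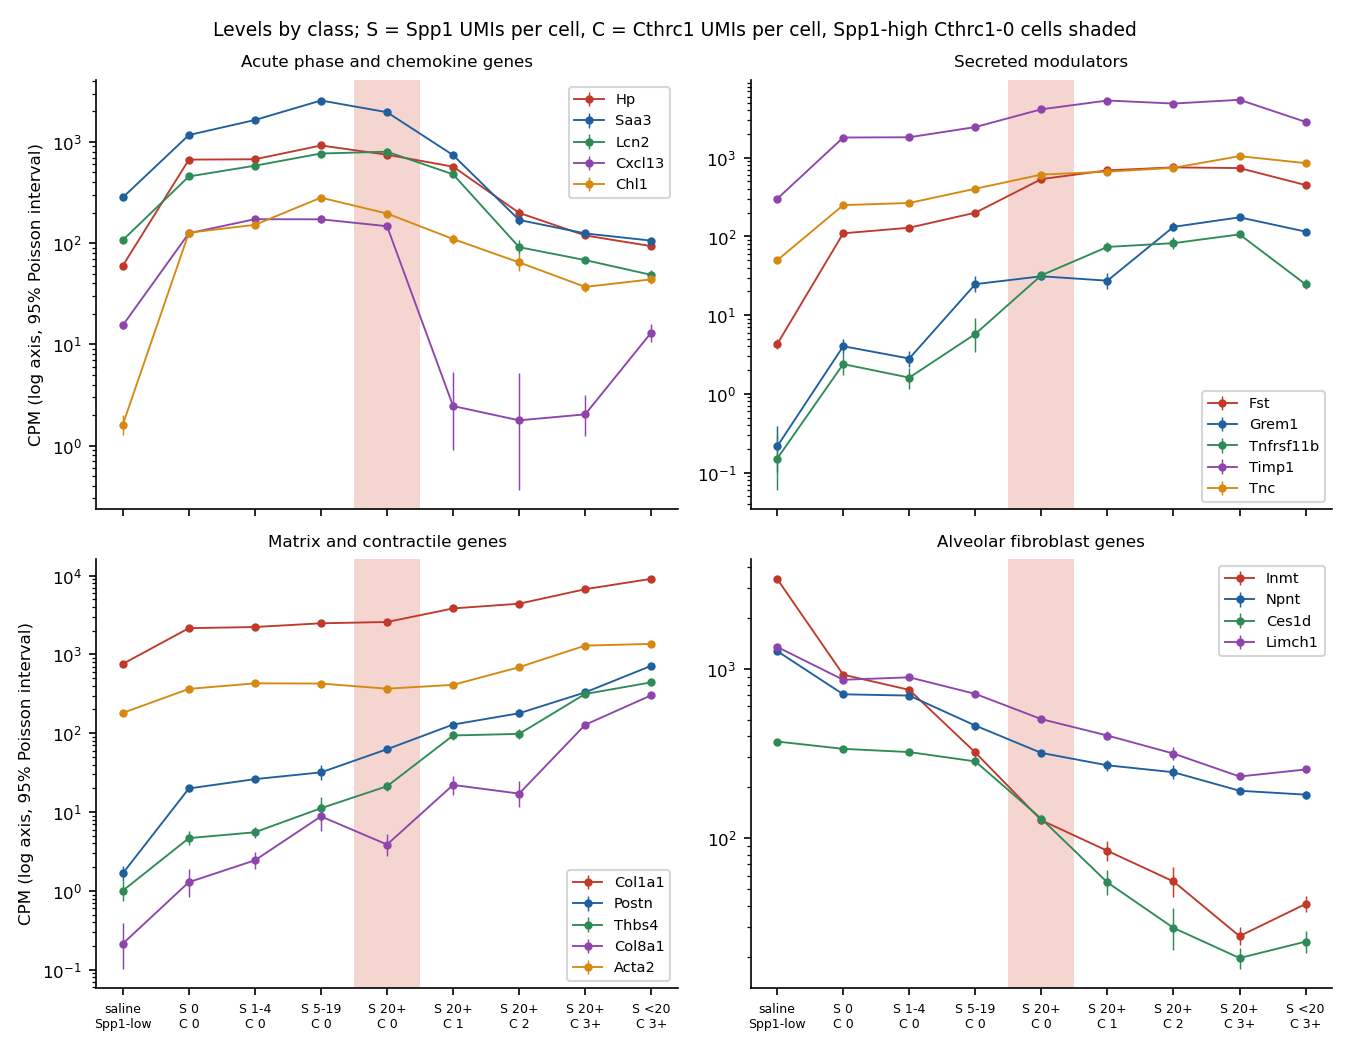
Points give CPM (log axis) with exact 95% Poisson intervals for 19 genes in 9 classes of cells ordered by their UMIs of Spp1 (S) and Cthrc1 (C), the saline class first; lines join the classes for reading only and Spp1-high cells are shaded. Saa3 stands at 1961 CPM in the shaded class and 169 with 2 UMIs of Cthrc1, Fst goes from 200.5 to 536 into the shaded class, and Col1a1 from 2575 to 6710 after it.

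Among lists not yet described, 5 of 6 smooth muscle genes were lower than in Cthrc1-high cells (median log2 ratio -1.78). Retinoid and lipid genes were lower than in Spp1-low cells at 5 of 12, with Lrat and Rbp4 among them, and higher at 1, and against Cthrc1-high cells 4 of 13 were higher and 2 lower. Peribronchial genes were lower than in Spp1-low cells at 4 of 9 and higher at 1, and mesothelial genes lower at 7 of 8, all 7 measured only through Spp1-low cells. No gene of 7 measured osteopontin receptors was apart from Cthrc1-high cells: Cd44 was at 175 against 243 CPM and the integrin subunit Itgb1 at 582 against 900. Against Spp1-low cells 1 of 8 was lower, Itga8, which is also a gene of alveolar fibroblasts. Of 20 immediate early genes, which respond to tissue dissociation, 0 were apart in either comparison, though their median log2 ratio was 0.26 over Cthrc1-high and -0.52 over Spp1-low cells. Of 14 glycolysis and hypoxia genes 0 were apart from Spp1-low cells, and adrenomedullin Adm was higher and Pfkp lower than in Cthrc1-high cells.

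In the list of BMP, activin and Wnt modulators, 6 of 25 genes were higher and 4 lower than in Spp1-low cells. Of these, 4 of the 6 and 3 of the 4 were below 10 CPM in the class with less. The higher ones were Bmp2, Grem1, Fst, Inhba, Rspo3 and the Wnt inhibitor Dkk2, and the lower ones included Bmp3, Chrdl1 and Rspo1. Among 26 measured transcription factor genes, Runx2 (18.0 against 6.66 CPM) and Sox9 (42.2 against 15.9), regulators of bone and cartilage, were higher than in Spp1-low cells, and Tcf21 and Gli1 lower. Of the 2 higher and the 2 lower genes, 1 each was below 10 CPM in the class with less. Against Cthrc1-high cells the tendon regulator Scx (8.94 against 73.5 CPM), Meox1, Twist1 and Bhlhe41 were lower and Tcf21 was higher. All 4 lower genes were below 10 CPM in Spp1-high cells and measured only through Cthrc1-high cells. Runx1 was at 228 CPM, between 152 in Spp1-low and 330 in Cthrc1-high cells, but not 2-fold from either.

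**Figure D4:**
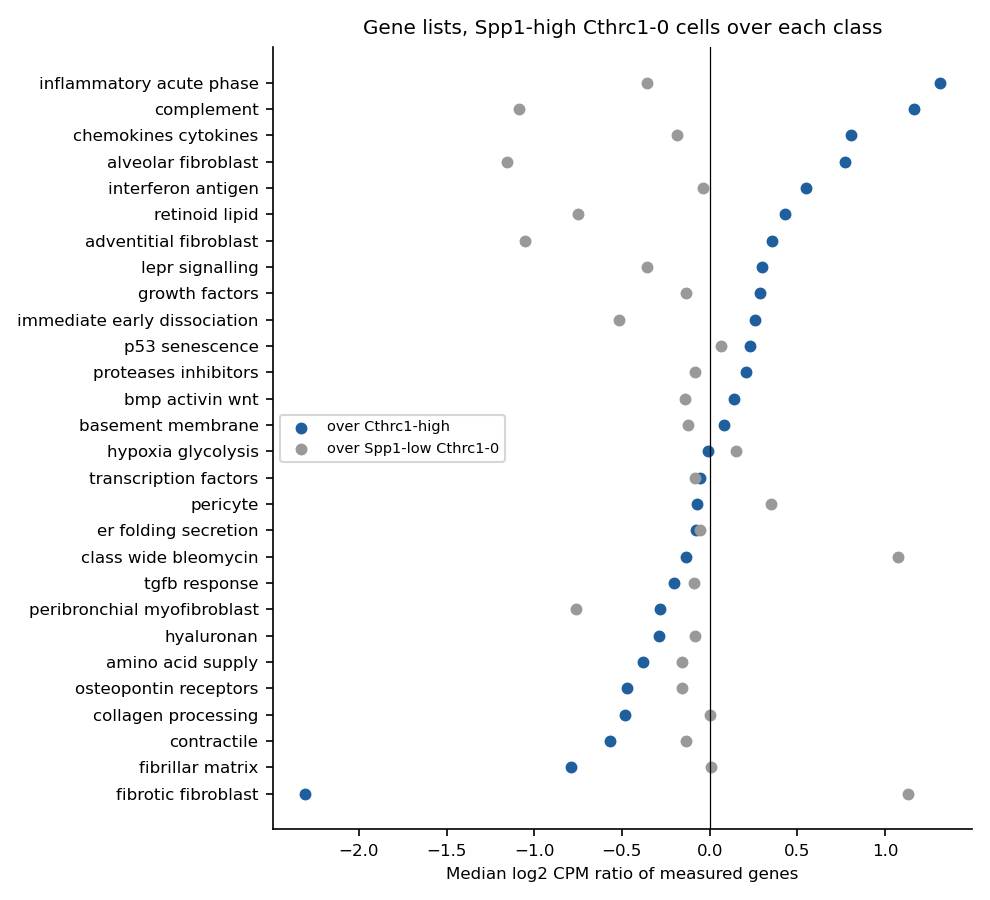
Points give the median log2 CPM ratio over the measured genes of each list, for Spp1-high cells over Cthrc1-high cells (blue) and over Spp1-low cells (grey); lists with fewer than 5 measured genes are left out. The fibrotic list is at -2.31 and 1.13 and the acute phase list at 1.31 and -0.36, on opposite sides of 0, while the median over all genes is -0.04 in both comparisons; the measured genes of a list are not the same in both (16 and 10 for the fibrotic list).

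Spp1-high cells differed among themselves, and those with most Spp1 had least of the acute phase and alveolar genes. They were ordered by the share of their UMIs from Spp1 into bins of 161, 160, 160 and 160 cells, with median shares of 0.296%, 0.874%, 2.07% and 7.19%, and levels were taken without Spp1. Of 7524 genes, 117 (1.56%) were higher and 235 (3.12%) lower in the top than in the bottom bin. The median depth was 15883, 13118, 14660 and 15270 UMIs, close in the end bins. Lists that were lower were complement (5 of 9), alveolar genes (7 of 15), acute phase genes (7 of 16) and chemokines (8 of 18, with 1 higher), adventitial genes (5 of 12, with 1 higher) and retinoid and lipid genes (5 of 12), while contractile genes had 2 of 21 lower and matrix genes 2 of 26 lower and 1 higher.

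Saa3 was at 2453, 2417, 2517 and 597 CPM from the lowest to the highest bin, and Lcn2 at 1184, 1233, 669 and 156. Saa3 was close to level over the first 3 bins and Lcn2 over the first 2. Cxcl13 was at 363, 59.9, 141 and 2.60 CPM, Csf3, a granulocyte growth factor, at 70.7, 118, 61.1 and 6.50. The alarmin Il33 was at 37.7, 8.74, 7.79 and 1.30 CPM, and Ptx3, a pattern recognition protein of acute inflammation, at 73.3, 48.5, 34.9 and 3.04. Cxcl13, Csf3, Il33 and Ptx3 rested on few cells, 44, 64, 36 and 51 of all 641. The 5% of Spp1-high cells with most of each gene held 99.2%, 89.0%, 97.2% and 94.5% of its UMIs. Inmt was at 204, 160, 116 and 34.7 CPM. Chl1 was lower too, at 257 and 111 CPM in the end bins, whereas Kif26b, at 49.1 and 47.3, and Col1a1, at 2684 and 2789, were less than 2-fold apart. Ccl20, Fabp4, Cxcl5, Retnlb, Rnd1 and Serpina3m completed the 10 lowest ratios. Of these, Ccl20 had 29 of its 30 UMIs in 1 of 2 cells, Retnlb was found in 10 cells, and 1 cell held 35.2% of the UMIs of Fabp4.

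Of the genes higher with Spp1, the 10 with the highest ratios were mostly low in level. Some lists had positive medians. Of the 14 genes chosen earlier as higher in all classes of bleomycin cells, 3 were higher and 2 lower (median log2 ratio 0.50). Among 12 fibrotic fibroblast genes 2 were higher and 1 lower (median 0.37). Tnfrsf11b was at 14.3, 5.24, 36.5 and 79.4 CPM and Lgals7 at 38.1, 32.3, 56.2 and 159. Dmp1, a secreted phosphoprotein gene of bone in the same family as Spp1, was at 0, 0.874, 7.79 and 10.8 CPM. The transcription regulator Lmo2 was at 1.83 and 26.9 CPM in the end bins and S100b at 3.30 and 25.6. These 3 genes rested on few cells. Dmp1 had 46 UMIs in 17 of the 641 Spp1-high cells. Lmo2 was found in 37 cells, 1 of which held 21.0% of its UMIs, and S100b in 54. Syt12, Pdgfc, Arhgdib, Adssl1 and Tmem267 completed the 10 highest ratios. Fst was at 508 and 826 CPM, a ratio of 1.63 [1.52–1.74], and so below the fold asked for.

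**Figure D5:**
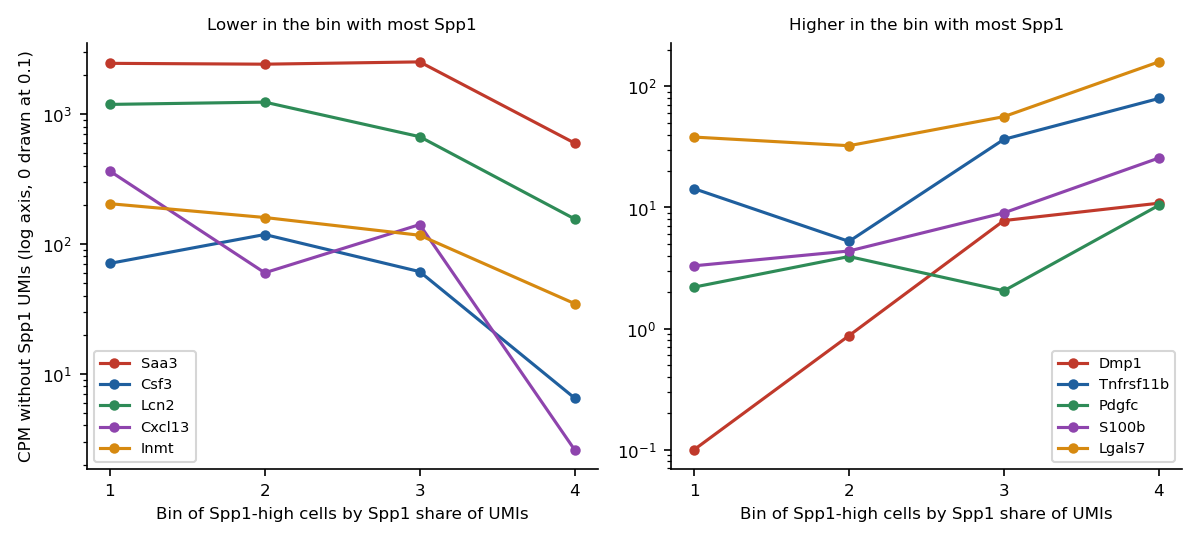
Points give CPM, computed without Spp1 UMIs, in the 4 bins of Spp1-high cells ordered by their share of Spp1, on log axes, with 0 drawn at 0.1 (Dmp1 in the first bin). Saa3, Lcn2, Csf3, Cxcl13 and Inmt are lowest in the last bin, Saa3 at 597 CPM against 2453 in the first, and Tnfrsf11b, Lgals7, Dmp1, S100b and Pdgfc are highest there.

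Shares of cells were taken at a fixed depth of 5000 UMIs, which left 621 Spp1-high, 953 Cthrc1-high, 4027 Spp1-low and 55 Epcam-positive cells, with 20, 15, 404 and 4 shallower cells left out. A UMI of Saa3 was found in 33.5% [29.8–37.4] of Spp1-high, 9.02% [7.28–11.0] of Cthrc1-high and 29.1% [27.7–30.6] of Spp1-low cells, against 7.27% of Epcam-positive cells. Without thinning the shares were 39.5%, 16.4%, 33.6% and 16.9%. Tnc was found in 73.9%, 86.3% and 41.8% of the 3 classes and 14.5% of Epcam-positive cells, and Fst in 60.4%, 69.9% and 20.9%, against 5.45%. By these genes Spp1-high cells were close to Spp1-low cells in Saa3 and closer to Cthrc1-high cells in Tnc and Fst.

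Postn was found in 14.0% [11.4–17.0] of Spp1-high, 63.0% [59.8–66.0] of Cthrc1-high and 4.92% [4.27–5.63] of Spp1-low cells, and Inmt in 23.5%, 6.40% and 67.3%. Hp was found in 50.6%, 16.3% and 47.3%, but also in 41.8% of Epcam-positive cells, whose median depth was 9790 UMIs; lung epithelium is a known source of Hp and Lcn2, so those cells are no clean background for either gene. Chl1 was found in 46.7%, 13.3% and 30.7%, against 5.45% of Epcam-positive cells. Lepr was found in 1.29% [0.558–2.52] of Spp1-high, 2.73% [1.79–3.97] of Cthrc1-high and 6.18% [5.46–6.97] of Spp1-low cells. In Epcam-positive cells it was 1.82% [0.046–9.72], which is 1 of 55 cells and too wide an interval to set a floor.

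Some barcodes held UMIs of both Saa3 and Tnc, Fst or Postn, in Spp1-high cells at shares no higher than the product of the single shares. Saa3 with Inmt, Lcn2 or Hp was found there at shares above that product, as it was in both other classes. At 5000 UMIs, 22.7% [19.5–26.2] of Spp1-high cells had a UMI of both Saa3 and Tnc, against 7.56% [5.96–9.42] of Cthrc1-high, 12.4% [11.4–13.5] of Spp1-low and 1.82% of Epcam-positive cells. The product of the single shares was 24.8%, 7.78% and 12.2% in the first 3. Saa3 with Fst was found in 16.6%, 5.77% and 6.43%, against a product of 20.2% in Spp1-high cells. Saa3 with Postn was rarer, at 2.42% [1.36–3.95], 4.20% [3.02–5.67] and 0.844% [0.585–1.18], against products of 4.69%, 5.68% and 1.43%. Saa3 with Acta2 was found in 12.238% of Spp1-high cells, against a product of 13.268%. In the same cells, Saa3 with the alveolar gene Inmt was at 11.916%, against a product of 7.875%. Saa3 with Lcn2 was at 20.451% against 9.978%, and with Hp at 23.994% against 16.936%. These pairs were not particular to Spp1-high cells. In Cthrc1-high cells, Saa3 with Inmt, Lcn2 and Hp was at 1.68%, 2.41% and 3.57%, against products of 0.578%, 0.502% and 1.47%. In Spp1-low cells the shares were 20.8%, 16.7% and 19.4%, against 19.6%, 8.82% and 13.8%. Barcodes that held more than 1 cell were not called or removed, and their part in these joint shares was not tested.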

How the data were processed

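Single-cell RNA-seq libraries of sorted lung cells, 1 of saline and 1 of bleomycin mice, were used as deposited: raw UMI counts per gene and barcode in cell-containing barcodes, made by the authors with Cell Ranger 6.1.2 on mm10, per the file headers and the submitters' processing notes. The labels' protocols name a 3′ v3 kit. How the authors filtered barcodes further is not stated there.

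Cells with at least 500 genes and at most 10% mitochondrial UMIs were kept. UMIs were summed over the cells of each class and divided by the class total to give CPM. Levels have exact Poisson intervals, ratios exact conditional binomial and shares Clopper-Pearson intervals, at 95%. The size rule asks for a ratio of 2, 10 CPM in the higher class and an interval clear of 1; the genes of the selection were left out. Shares were taken after thinning each cell to 5000 UMIs (seed 1), with cells of at least 3 Epcam UMIs as background. No clustering was run and doublets were neither called nor removed.

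Named genes are the given markers, the 12 highest and 12 lowest ratios of each comparison that were also 2-fold apart in cells of 8000 to 20000 UMIs and in mean single-cell CPM (unnamed gene models left out), up to 12 above and below both classes on the same terms, the 10 highest and 10 lowest between the top and bottom bins of Spp1 share, and members of fixed lists. A few genes that this rule names are not reported here. Members and lists were chosen with earlier results of these data known. Of the list symbols, 4 did not match the files. Alternatives changed the Spp1 and Cthrc1 limits, fold, minimum, depth, cell filter, weighting of cells, total, other cell types and the 5% deepest cells. The scripts were tested on simulated data. Python 3.11.15, numpy 2.4.6, scipy 1.17.1, pandas 2.3.3 and matplotlib 3.10.9 were used. Gene positions are from GENCODE on mm10.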

Additional observations from a re-analysis of the deposited data

How the results depend on the processing

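Which cells count as Spp1-high set their number: 746 with a limit of 10 UMIs of Spp1, 555 with 40, 451 among cells of 8000 to 20000 UMIs and 520 among cells of at least 10000 UMIs, against 641. The gene counts moved with the size asked for. Genes higher and lower than in Cthrc1-high cells (183 and 209) were 450 and 473 at a fold of 1.5, 60 and 103 at a fold of 3, 81 and 83 with a minimum of 50 CPM, and 585 and 609 with no minimum. Genes higher and lower than in Spp1-low cells (107 and 262) were 251 and 620, 47 and 107, 37 and 107, and 473 and 895 in the same order. With a comparison class of at least 1 UMI of Cthrc1, 64 genes were higher. The share of genes at which Spp1-high cells lay between (85.5%) was 82.4% at a fold of 1.5, 88.5% with 50 CPM, 70.5% with no minimum, 77.3% with at least 1 UMI of Cthrc1 and, chosen after seeing the data, 88.8% against Cthrc1-high cells with at least 20 UMIs of Spp1. The remaining 60 values lay within 1.5 times the gene count, or within the interval of the cell number or share, with genes higher than in Cthrc1-high cells from 172 to 264 among them.

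Of 159 ratios of named genes, 30 lay on the other side of 1 under some alternative, and 6 of these had met the size rule. Slurp1 over Cthrc1-high cells went to 3.97 in cells of 8000 to 20000 UMIs, 8.37 without cells of other types and 2.93 against Cthrc1-high cells with at least 20 UMIs of Spp1, where Fibin went to 1.06. Without cells of other types, ratios over Spp1-low cells went to 0.375 for Saa1, 4.00 for Slurp1, 1.21 for Sftpa1 and 1.91 for Sftpb. Beyond the settings' own construction, the cause was not tested. Over all alternatives, 349 values of named ratios left their counting interval without such a change of side and 1449 did not, 83 shares of cells moved beyond it on thinning to 3000 UMIs and 34 did not, and 24 list medians moved by 0.5 or more on the log2 scale and 986 by less. No paired analysis was possible because each group is 1 library. With 1 library a group, no value has a replicate check, and all intervals cover counting error only.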
